A study of Tupaia belangeri with 2 samples.

Results

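GATA2-positive cells of the fetal tree shrew brain were chosen by detection of LHX1, LHX5, GATA3 or ST18, genes of early GABA neurons. They also had at most 1 detected cell cycle gene, which by itself does not show that a cell had left the cycle. Whole brains of 2 embryos of the tree shrew Tupaia belangeri, collected at 4 to 5 postconceptional weeks, had each been turned into 1 droplet library with the 10x 3′ version 3 kit, in which a unique molecular identifier (UMI) marks each captured RNA molecule. Neither embryo carried a stated transgene or treatment, no region was dissected, and the dura mater and vessels had been taken off before papain digestion, so the libraries give no position in the brain and no control group. The cells were chosen from the count matrix by 5 criteria. A barcode had at least 500 genes, at least 1 UMI of GATA2 and at least 1 UMI summed over LHX1, LHX5, GATA3 and ST18. Under 5% of its UMIs came from the hemoglobin genes HBB, HBA1 and HBA2, and it had a UMI of at most 1 of the cycle genes MKI67, TOP2A, CENPF, PRC1, NUSAP1 and UBE2C. These criteria held for 114 of 18926 barcodes, 43 of 9241 in embryo 1 and 71 of 9685 in embryo 2. Of the 168 barcodes with 500 genes and a GATA2 UMI, 125 had a UMI of LHX1, LHX5, GATA3 or ST18, and 123 of those passed the hemoglobin criterion. Against the 4535 and 6790 cells that passed the gene, hemoglobin and cycle criteria, the GATA2-positive cells made up 0.948% (95% Clopper-Pearson interval 0.687 to 1.28%) in embryo 1 and 1.05% (0.818 to 1.32%) in embryo 2. The mean share was 0.997% ± 0.0689 (SD, n = 2 embryos), and the intervals, here and below, cover counting error only. The 18 barcodes that the libraries shared included none of these cells.

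GATA2 and GATA3 are zinc finger transcription factors, and in the vertebrate midbrain and diencephalon GATA2 is switched on as GABA progenitors stop dividing and is needed there for the choice of a GABA over a glutamate fate. LHX1 and LHX5 are LIM homeodomain factors of young neurons, ST18 is a zinc finger factor of neurons leaving the cell cycle, and GATA3 follows GATA2 in maturing GABA neurons of these regions. GABA is made from glutamate by the decarboxylases GAD1 and GAD2. GABA neurons of the forebrain arise by another route, under DLX factors in the ganglionic eminences.

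The 114 cells were shallow. A typical cell of embryo 1 had 3429 UMIs from 1179 genes (medians), and one of embryo 2 had 3083 UMIs from 1146 genes. Summed over cells, they held 158080 and 240290 UMIs, so that 1 UMI was worth 6.33 and 4.16 counts per 1000000 UMIs (CPM). All levels below are CPM of UMIs summed over the cells of a class in an embryo, given for embryo 1 and then embryo 2. UMIs were read at the 3′ end and were not divided by length, so levels are compared between classes and not between genes. A pair of members of embryo 1 stood apart through the embryonic globins HBE1 and HBG1, which the hemoglobin criterion did not use. These globins held 17.8% of 6478 UMIs in the first cell and 9.44% of 4079 UMIs in the second, against 0.0490% in the next highest member of that embryo. No member of embryo 2 reached 1%. Where leaving out this pair ended a call, that is said beside the gene.

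Of the genes that chose the cells, GATA2 was sparse. It was represented by 1 UMI in 100 cells, by 2 UMIs in 13 and by 3 UMIs in 1 cell. LHX1 was detected in 90 of the 114 cells (78.9%), ST18 in 64 (56.1%), LHX5 in 29 (25.4%) and GATA3 in 17 (14.9%). One of these 4 genes alone was detected in 52 cells, of which 32 had only LHX1 and 12 only ST18, and LHX1 and ST18 were detected together in 48 cells. All 4 genes were seen in 2 cells, both of embryo 1. GATA2 stood at 310.0 and 333 CPM in embryos 1 and 2, LHX1 at 462 and 570.1, ST18 at 418 and 316, LHX5 at 94.9 and 83.2 and GATA3 at 82.2 and 37.5. Since these values fixed the choice of cells, they are a description and were not tested. Just inside the criteria lay 28 cells with a single UMI over the 4 partner genes and 41 cells with 1 cycle gene. Just outside lay 35 GATA2-positive cells with none of the 4 partner genes, 9 cells with at least 2 cycle genes, 2 cells with 5% hemoglobin or more and 1 cell with at least 200 but under 500 genes. A further 3211 cells had a partner gene and no GATA2 UMI.

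A set of 4 classes of cells that passed the same gene, hemoglobin and cycle criteria served for comparison. The GATA3 class had a GATA3 UMI and none of GATA2 (138 cells in embryo 1 and 321 in embryo 2). The DLX class had at least 2 UMIs over DLX1, DLX2 and DLX5 and none of GATA2 or GATA3 (381 and 727 cells). The DLL3 class had a UMI of DLL3, a Notch ligand of progenitors about to become neurons, none of GATA2 or GATA3 and fewer than 2 DLX UMIs (162 and 349 cells). A cortical class had NEUROD2 and NEUROD6, factors of excitatory neurons of the cortex, and none of the genes that defined the other classes (70 and 61 cells). Median depths were 2702.5 and 2561 UMIs per cell in the GATA3 class, 2521 and 2410 in the DLX class, 3651 and 3499 in the DLL3 class and 4800 and 3789 in the cortical class. The absence of GATA2 from these classes is a matter of definition. When GATA2 was not used to choose them, a GATA2 UMI was seen in 8 of 146 cells (5.48%) and 9 of 330 (2.73%) chosen by GATA3, and in 9 of 171 (5.26%) and 16 of 365 (4.38%) chosen by DLL3. It was seen in 0 of 381 and 2 of 729 cells chosen by DLX and in 0 of 71 and 0 of 68 cortical cells. Erythroid cells, at median depths of 8578 and 10041 UMIs, had it in 0 of 1619 and 2 of 589. The cells chosen by GATA3 that had GATA2 were the members with GATA3 themselves, so these shares are a description and were not tested. The cortical counts of 0 allow a share of up to 5.06 and 5.28% (upper 95% bound). At a common depth of 1500 UMIs the share averaged 1.28% by GATA3 and 2.04% by DLL3, so that detection of GATA2 fell with depth. At that depth GATA2 was seen in 2 of 129 and 3 of 300 cells chosen by GATA3 and in 3 of 166 and 8 of 351 chosen by DLL3. It was seen in 0 of 336 and 1 of 647 cells chosen by DLX, and in no cortical or erythroid cell.

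**Figure D1:**
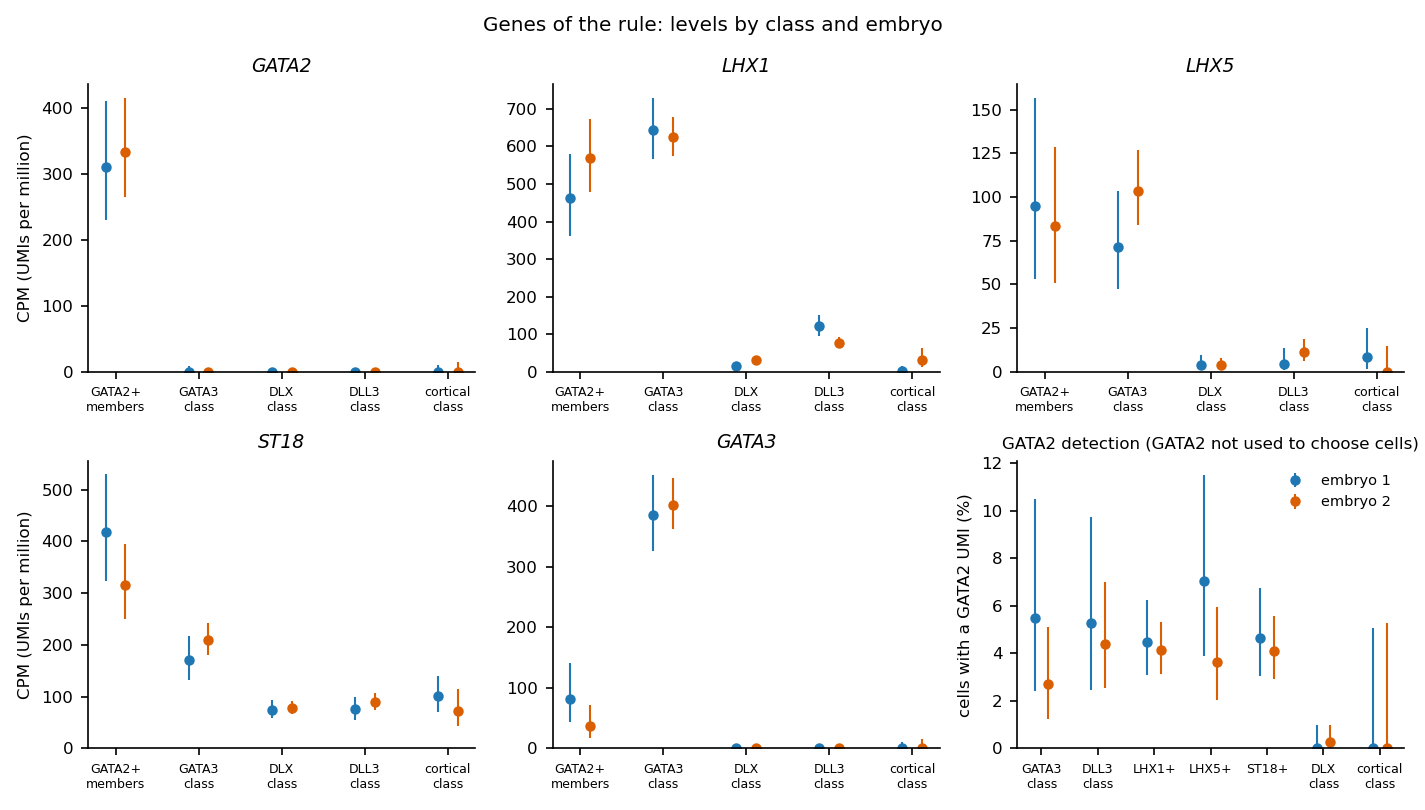
Levels of the 5 genes that chose the GATA2-positive cells, in CPM by class and embryo (points, with exact 95% Poisson intervals), and the share of cells with a GATA2 UMI when GATA2 was not used to choose them (last panel, with exact binomial intervals). GATA2 is at 0 in the 4 comparison classes by definition, as is GATA3 in the DLX, DLL3 and cortical classes, while the last panel shows GATA2 in 5.48 and 2.73% of the cells chosen by GATA3 and in none of the cortical cells.

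Except for hemoglobin and the radial glia genes described below, markers of other cell types that the suspension could hold had few or no UMIs in the GATA2-positive cells. Microglia (4 annotated markers, AIF1, C1QB, CSF1R and CX3CR1), mesenchymal cells (COL1A1, COL1A2, LUM and PDGFRB) and oligodendrocyte precursors (PDGFRA and SOX10) were listed at 0 in both embryos. Of 7 endothelial markers, PECAM1 and KDR had 1 UMI each and CDH5, EMCN, ESAM, FLT1 and TEK none. Mast and blood progenitor cells also use GATA2, and of their 5 annotated markers KIT, which neurons also express, had 1 and 5 UMIs, and CD34, CPA3 and HDC had none. Of 5 serotonergic markers, which matter because GATA2 acts in serotonergic neurons of the hindbrain too, GCH1 had 1 UMI and FEV, TPH2, SLC6A4 and DDC none. The erythroid list (7 annotated markers, mostly HBB, with KLF1 and SLC4A1 at 0) summed to 3182 and 928 CPM. It came to 3008 and 977 CPM in the GATA3 class and 3058 and 972 CPM in the DLX class, so it differed between the embryos and little between these classes. In embryo 1 it was lower in the DLL3 class (2195 and 943 CPM) and the cortical class (1937 and 861 CPM). The embryonic globins HBE1 and HBG1 were not in this list. The glutamatergic markers summed to 1 and 2 UMIs, 2 of SLC17A6, the vesicular glutamate transporter of midbrain and thalamus, and 1 of NEUROD6, with NEUROD1 and NEUROD2 at 0.

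Among named partners of GATA2, TAL1, the basic helix-loop-helix factor that acts beside it in midbrain GABA neurons, was at 19.0 and 20.8 CPM, or 8 UMIs in 8 cells. Its levels were 15.3 and 16.7 CPM in the GATA3 class, 1.88 and 0.487 in the DLX class and 1.57 and 4.61 in the DLL3 class. SOX14, a repressor of GABA neurons of thalamus and midbrain, had 5 UMIs, all in 4 cells of embryo 2. The LIM adaptors LMO1 and LDB1 were at 12.7 and 45.8 and 19.0 and 16.6 CPM. LMO4 and LDB2 were at 6.33 and 12.5 and 0 and 8.32 CPM, no more than the 3 UMIs taken as the floor in each embryo. VSX1, FOXN4, NKX2-2, LHX3 and LHX4, several of which mark neurons of the spinal cord, were not detected. A level of 0 allows up to 19.0 CPM in embryo 1 and 12.5 CPM in embryo 2. DLX1 and DLX2 were also at 0 and DLX5 had 7 UMIs in 3 cells (6.33 and 25.0 CPM), whereas DLL3 had a UMI in 21 cells (18.4%).

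The sums of the GATA2-positive cells were compared with those of the GATA3, DLX and DLL3 classes over 4889 genes, with embryo as a block. The DLL3 class mixed lineages, with mean levels of 140 CPM for NEUROD6 and 37.0 CPM for SLC17A6, and with GAD1 or GAD2 in 25.4% of its cells. Whether a difference from the DLL3 class goes with stage or with lineage was not tested. A gene passed at a Benjamini-Hochberg adjusted p under 0.05 in edgeR's quasi-likelihood test, and values below are log2 fold changes ± SE with that p. Against the GATA3 class 170 genes (3.48% of those tested) differed, 120 higher (2.45%) and 50 lower (1.02%) in the GATA2-positive cells. Against the DLX class it was 428 genes (8.75%), 251 higher (5.13%) and 177 lower (3.62%). Against the DLL3 class it was 202 (4.13%), 75 higher (1.53%) and 127 lower (2.6%). Without the gene filter the balance moved to 88 higher and 77 lower, 203 and 248, and 56 and 221, and among the 14 cells with 2 or more GATA2 UMIs to 26 and 57, 66 and 89, and 5 and 88. In those 14 cells the sign turned for 12 of 119 named fold changes (TFAP2B, GAD1, ASIC4 and RBFOX2 against the DLL3 class, GAD1, ASIC4, TFAP2A, EN1, PAX7 and IRX3 against the DLX class, and SPARCL1 and CDKN1C against the GATA3 class). DESeq2 gave an adjusted p to 1648, 7158 and 1398 genes, SHOX2 against the GATA3 class not among them, and kept 63 of the 83 named calls or non-calls it could give. Without the block the counts were 36, 284 and 88, and with embryo 2 left out 63, 190 and 62. The median log2 fold change over all genes was -0.02 in each. The 3 comparisons use the same GATA2-positive sums and are given side by side without any test between them. Where 1 embryo is left out below, its remaining lone sums are assumed to vary like the other classes.

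GAD2 was well expressed in the GATA2-positive cells, below the level of both GABA classes and above that of the DLL3 class. GAD2 stood at 614 and 732 CPM in embryos 1 and 2. It was at 1119 and 1209 CPM in the GATA3 class (log2 fold change -0.65 ± 0.10, edgeR adjusted p = 5.2e-05) and at 1229 and 1244 CPM in the DLX class (-0.71 ± 0.10, adjusted p = 3.5e-06). In the DLL3 class it was at 160.1 and 199.9 CPM (1.83 ± 0.12, adjusted p = 6.2e-12). The levels of the 2 embryos did not overlap between classes in any of the 3 comparisons. GAD1 was at 82.2 and 87.4 CPM, against 141 and 158 in the GATA3 class and 62.0 and 59.4 in the DLX class, differences that did not pass the test (adjusted p = 0.25 and 0.26 by edgeR). Against the DLL3 class, at 31.4 and 15.4 CPM, GAD1 was higher (log2 fold change 1.96 ± 0.39, edgeR adjusted p = 0.0021), but without embryo 2 the call of GAD1 (1.33) was lost. ABAT, the transaminase that breaks GABA down, was at 31.6 and 58.3 CPM and differed only against the DLX class (log2 fold change 1.32 ± 0.41, edgeR adjusted p = 0.04), where without embryo 2 the call of ABAT (0.76) was lost. The later GABA genes were nearly absent at this depth, and this did not set the cells apart from the GATA3 class. SLC32A1, which loads GABA into vesicles, had 1 UMI, against 3 UMIs in 459 cells of the GATA3 class and 25 in 1108 of the DLX class. The glycine transporter SLC6A5 had none here or in any comparison class. ABAT did not pass by DESeq2 (adjusted p = 0.32). Thus of the 3 GABA genes tested, 1 was lower against the GATA3 class, 1 higher and 1 lower against the DLX class, and 2 higher against the DLL3 class.

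**Figure D2:**
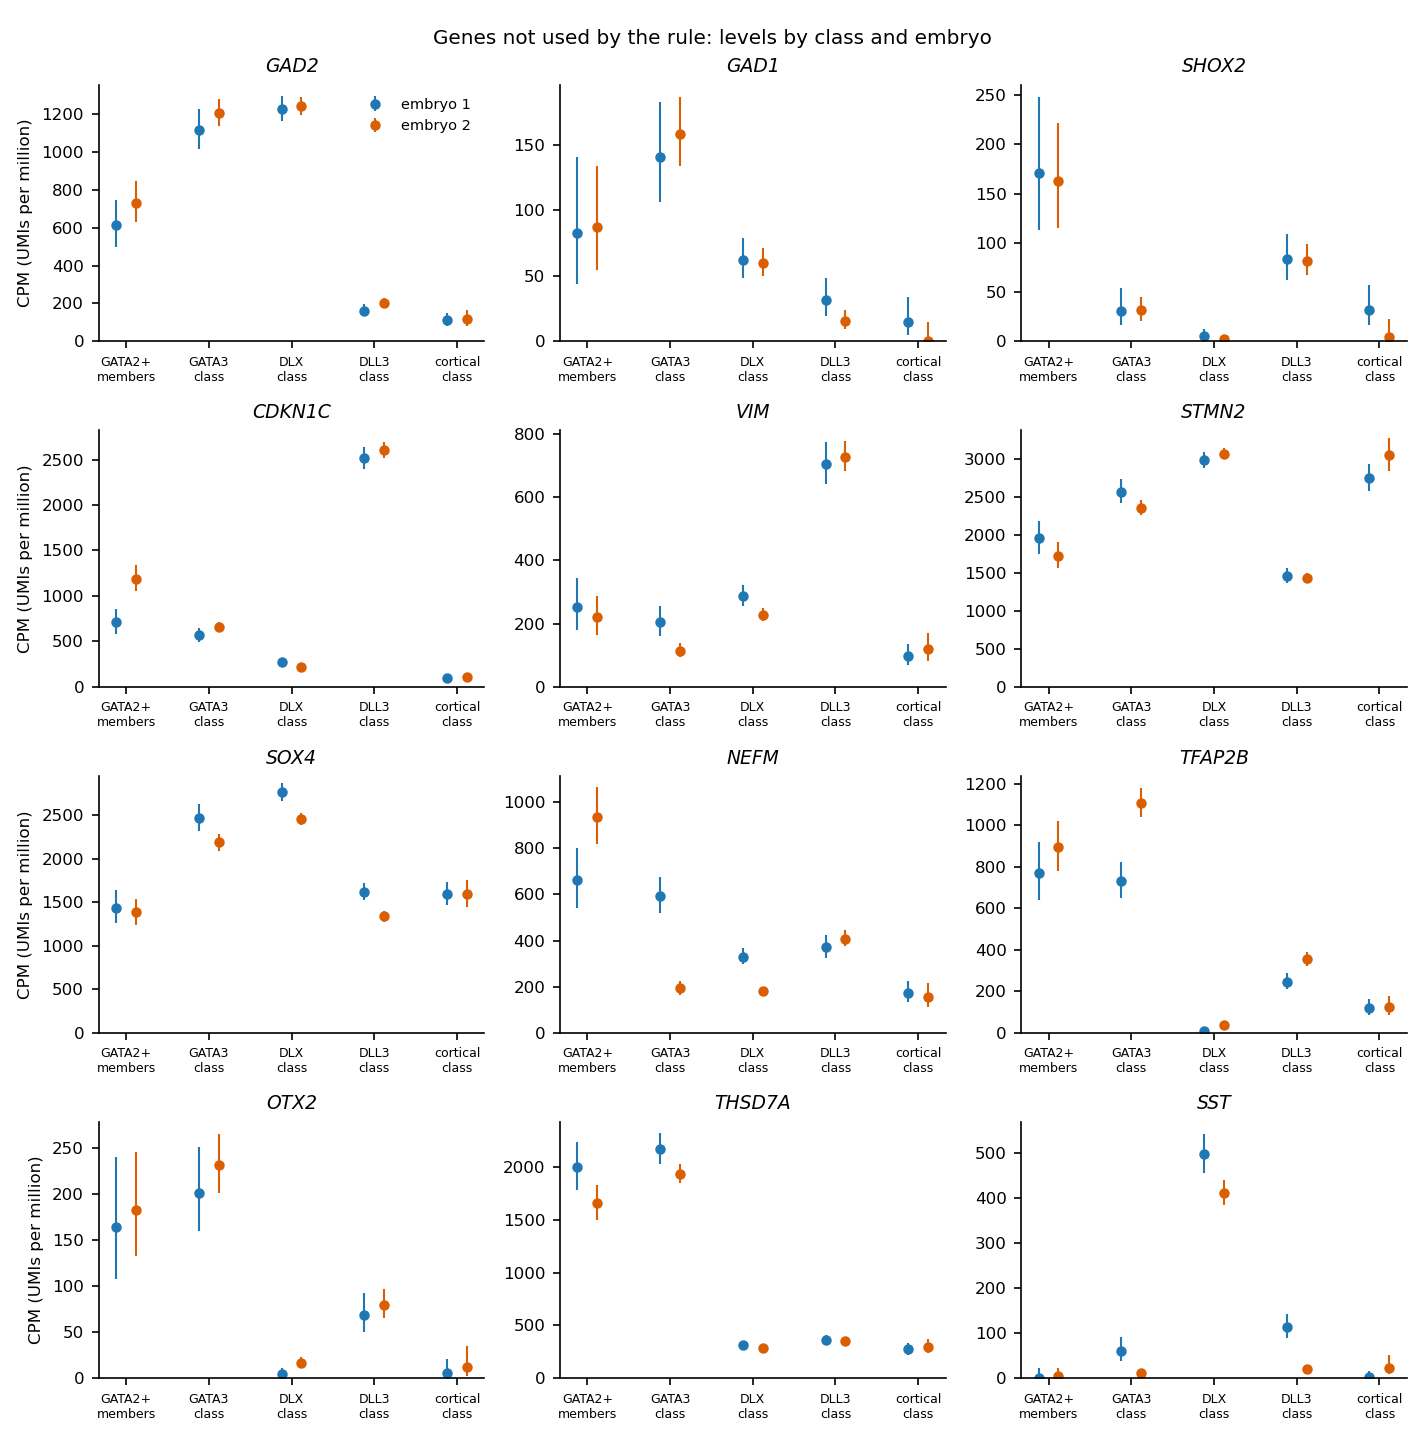
Levels of 12 genes that the choice of cells did not use, in CPM by class and embryo (points, with exact 95% Poisson intervals for counting error). GAD2 in the GATA2-positive cells lies between the DLL3 class and both GABA classes in either embryo. Among the classes shown, SHOX2 is highest in the GATA2-positive cells, chosen by GATA2 and a partner gene together. NEFM and CDKN1C differ between the embryos of the GATA2-positive cells.

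By cell, a UMI of GAD1 or GAD2 was found in 83 of the 114 cells (72.8%), or 67.4% in embryo 1 and 76.1% in embryo 2. The share was 86.9% in the GATA3 class, 89.2% in the DLX class, 25.4% in the DLL3 class and 14.5% in the cortical class, which gives the level to be read as background for GAD in excitatory cells of greater depth. The other 31 cells, 14 in embryo 1 and 17 in embryo 2, had neither decarboxylase at median depths (3713 and 3331 UMIs) no lower than those of the cells with GAD (3348 and 2972). At this depth a cell without a GAD UMI need not lack the RNA, and the cells are called by GATA2 here.

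SHOX2, a homeobox factor of glutamatergic neurons of midbrain and thalamus among other places, was well above the level of both GABA classes. Its level was 171 and 162 CPM in the GATA2-positive cells of embryos 1 and 2, 30.7 and 31.2 in the GATA3 class, 5.64 and 1.95 in the DLX class and 83.2 and 81.5 in the DLL3 class. The lower embryo of the GATA2-positive cells thus exceeded the higher embryo of every other class. SHOX2 was higher than in the GATA3 class (log2 fold change 2.52 ± 0.32, edgeR adjusted p = 1.8e-06) and the DLX class (5.75 ± 0.41, adjusted p = 6.5e-12), and both calls held without either embryo. Against the DLL3 class the difference was small (log2 fold change 0.94 ± 0.26, edgeR adjusted p = 0.032) and without embryo 1 the call of SHOX2 (0.89) was lost and without embryo 2 the call of SHOX2 (0.98) was lost. SHOX2 was detected in 34 of the 114 cells (29.8%), compared with 6.97% of the GATA3 class, 0.632% of the DLX class and 16.8% of the DLL3 class. With cells thinned to 1500 UMIs it was seen in 10 of 40 and 12 of 68 GATA2-positive cells, in 3 of 122 and 10 of 292 cells of the GATA3 class and in 11 of 157 and 31 of 335 cells of the DLL3 class. The 35 GATA2-positive cells with none of the 4 partner genes, left out by the criteria, had SHOX2 in only 1 cell (2.86%). Cells with a partner gene and no GATA2 UMI had it in 9.97%. The SHOX2 level thus describes the cells chosen by GATA2 and a partner gene together, not all cells with GATA2.

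SHOX2 and GAD were mostly found in different cells. Of the 31 cells without GAD1 and GAD2, 22 had a SHOX2 UMI (10 of 14 in embryo 1 and 12 of 17 in embryo 2, 71.0% together). Of the 83 cells with GAD, 12 had one (14.5%). In the GATA3 class the corresponding shares were 18.3 and 5.26%, and in the DLL3 class 18.1 and 13.1%. The 3211 cells with a partner gene and no GATA2 UMI, the nearest match to the selection, had SHOX2 in 22.4% of those without GAD and in 4.84% of those with it. The division of the GATA2-positive cells by GAD was made after these values had been seen, so it is described without a test. TCF12, a basic helix-loop-helix partner of proneural factors, was detected in 10 of 14 and 12 of 17 of the cells without GAD and in 10 of 29 and 12 of 54 of those with it. CDKN1C, an inhibitor of cyclin-dependent kinases, was at 1164 and 3201 CPM without GAD and 477 and 539.8 CPM with GAD. The neurofilament gene NEFM followed the same order (977 and 2418 CPM against 506 and 457 CPM), as did TFAP2B, a transcription factor of midbrain GABA neurons (1315 and 1124 CPM against 496 and 821 CPM). The order was the opposite for STMN2, which regulates microtubules in growing axons (1164 and 562 CPM against 2366 and 2109 CPM), for the vesicle priming factor CADPS (150.2 and 68.1 CPM against 315 and 457 CPM) and for the homeobox gene UNCX (37.6 and 17.0 CPM against 124 and 127 CPM). ASIC4, RELN and TCF7L2 had no UMI in the cells without GAD. OTX2 had no common order in the embryos (188 and 119 CPM against 153 and 204 CPM). THSD7A was detected in 13 of 14 and 14 of 17 cells without GAD and 24 of 29 and 49 of 54 with it, at 1615 and 902 CPM against 2194 and 1900.2 CPM.

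**Figure D3:**
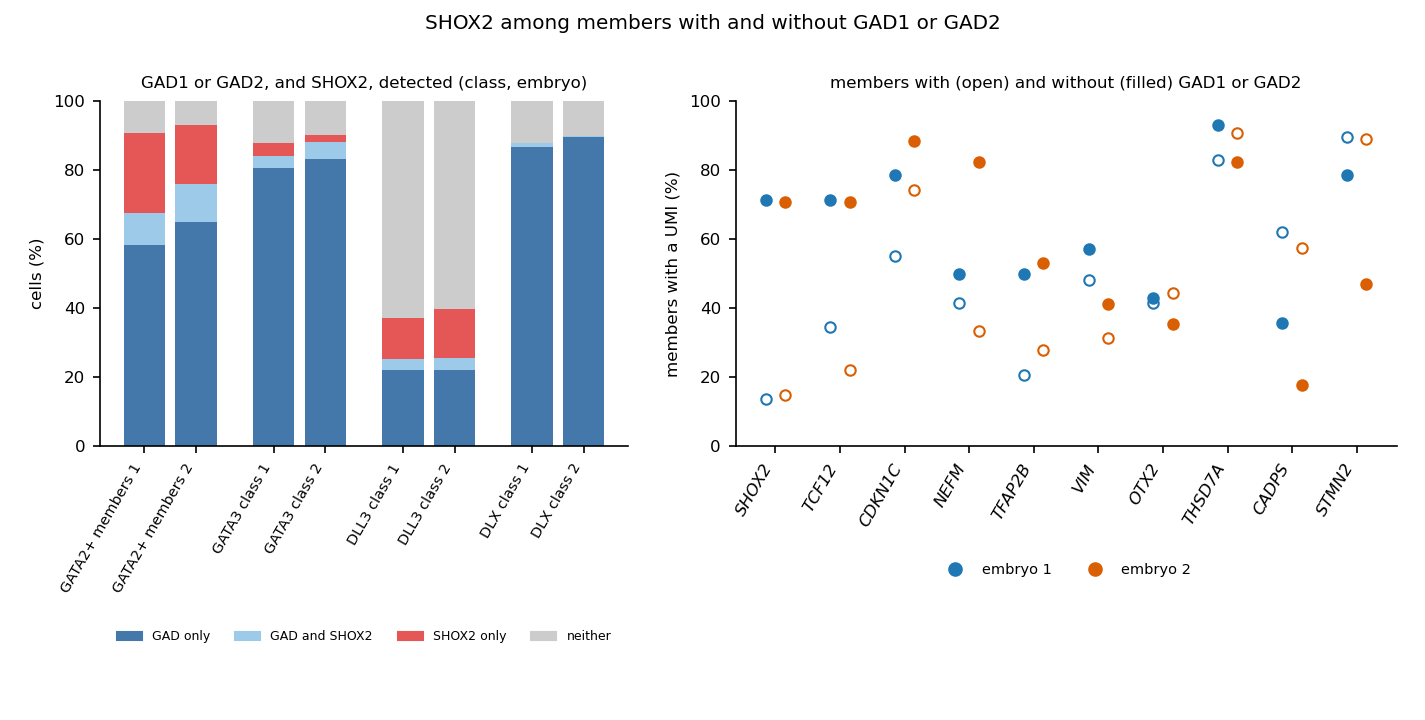
Left, share of cells of each class and embryo with a UMI of GAD1 or GAD2 only, of SHOX2 only, of both or of neither (stacked bars, in percent of cells). Right, share of the GATA2-positive cells with a UMI of 10 genes, among the cells with GAD (open) and without GAD (filled), in embryo 1 (blue) and embryo 2 (orange). SHOX2 alone was found in 23.3% of the GATA2-positive cells of embryo 1, and SHOX2 and TCF12 were detected in 70.6 to 71.4% of the cells without GAD in either embryo.

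Several genes of neurogenesis and of leaving the cell cycle differed from the GATA3 and DLL3 classes. Of 6 such genes tested, 3 were higher and 1 lower against the GATA3 class (median log2 fold change 0.96, against -0.02 over all genes). One was higher against the DLX class, and 1 was higher and 3 were lower against the DLL3 class (median -0.60). CDKN1C stood at 709 and 1190.2 CPM in the GATA2-positive cells, 565 and 653 in the GATA3 class, 278 and 218 in the DLX class and 2514 and 2602 in the DLL3 class. It was higher than in the GATA3 class (log2 fold change 0.79 ± 0.13, edgeR adjusted p = 0.00018) and the DLX class (2.15 ± 0.14, adjusted p = 1e-12). Compared with the DLL3 class it was lower (log2 fold change -1.46 ± 0.12, edgeR adjusted p = 1.5e-09). The excess over the GATA3 class was larger in embryo 2, and in both embryos it lay in the 31 cells without GAD (1164 and 3201 CPM). The 83 cells with GAD, at 477 and 539.8 CPM, were below the GATA3 class in both embryos. The GATA3 class was not divided by GAD for this gene, and the split was not tested. TCF12 was at 209 and 171 CPM and 79.2 and 71.4 in the GATA3 class (log2 fold change 1.46 ± 0.22, edgeR adjusted p = 3.6e-05). BTG2, an antiproliferative gene of neurogenic divisions, was at 108 and 87.4 CPM, above the GATA3 class (log2 fold change 1.13 ± 0.32, edgeR adjusted p = 0.043) and below the DLL3 class (-0.87 ± 0.24, adjusted p = 0.035). DESeq2 called 2 of the 4 against the GATA3 class, and its adjusted p was 0.095 for CDKN1C and 0.12 for RBFOX2. RBFOX2, a splicing factor of neurons, had the reverse order, lower than in the GATA3 class (log2 fold change -0.55 ± 0.15, edgeR adjusted p = 0.042) and higher than in the DLL3 class (0.71 ± 0.17, adjusted p = 0.013). CCND1, a cyclin of the G1 phase, was at 50.6 and 66.6 CPM against 299.7 and 354 in the DLL3 class (log2 fold change -2.52 ± 0.22, edgeR adjusted p = 2.4e-09). Of the calls against the GATA3 class, without embryo 1 the calls of BTG2 (0.98) and RBFOX2 (-0.62) were lost and without embryo 2 the calls of CDKN1C (0.45), BTG2 (1.27) and RBFOX2 (-0.44) were lost, and BTG2 also fell short with the pair of embryonic globin cells left out (1.09). Of those against the DLL3 class, without embryo 1 the calls of BTG2 (-1.02) and RBFOX2 (0.73) were lost and without embryo 2 the calls of BTG2 (-0.74) and RBFOX2 (0.59) were lost.

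Radial glia genes were still present, at a level well under that of the DLL3 class. The 5 annotated radial glia markers summed to 418 and 404 CPM, compared with 196 and 280.3 CPM in the cortical class, 307 and 235 CPM in the GATA3 class, 477 and 464 CPM in the DLX class and 1020 and 1069 CPM in the DLL3 class. VIM, an intermediate filament gene and the one with most UMIs, was at 253 and 221 CPM, 204 and 115 in the GATA3 class and 705 and 728 in the DLL3 class. It was above the GATA3 class (log2 fold change 0.80 ± 0.22, edgeR adjusted p = 0.03) and below the DLL3 class (-1.68 ± 0.17, adjusted p = 4.4e-08). FABP7, a fatty acid binding protein of radial glia at 158 and 158 CPM, had the same order. It was above the GATA3 class (log2 fold change 1.03 ± 0.22, edgeR adjusted p = 0.0031) and below the DLL3 class (-0.98 ± 0.17, adjusted p = 0.00038). NES, a further filament gene, was lower than in the DLL3 class (log2 fold change -1.52 ± 0.32, edgeR adjusted p = 0.0034), as was PTPRZ1 (-2.12 ± 0.32, adjusted p = 5.8e-05), a receptor phosphatase of radial glia. In all, 4 of 6 radial glia genes tested were lower than in the DLL3 class (median log2 fold change -1.60, or -1.28 with undetected genes at their bound). A pair of them was higher than in the GATA3 class, and PAX6 was lower than in the DLX class by edgeR but not by DESeq2 (adjusted p = 0.087). For VIM and FABP7 beside the GATA3 class, without embryo 1 the call of FABP7 (0.94) was lost and without embryo 2 the calls of VIM (0.43) and FABP7 (1.12) were lost. For the 4 genes beside the DLL3 class, without embryo 1 the call of NES (-1.41) was lost and without embryo 2 the calls of FABP7 (-0.85) and NES (-1.74) were lost.

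Genes of young neurons were well detected, and those that differed from the GABA classes were lower. The 3 annotated pan-neuronal markers summed to 2069 and 1823 CPM, against 2732 and 2475 CPM in the GATA3 class, 3186 and 3256 CPM in the DLX class and 1579 and 1508 CPM in the DLL3 class. STMN2, detected in 93 of the 114 cells, was at 1961 and 1731 CPM. It was lower than in the GATA3 class (log2 fold change -0.29 ± 0.07, edgeR adjusted p = 0.009) and the DLX class (-0.57 ± 0.07, adjusted p = 1.8e-07), and slightly higher than in the DLL3 class (0.28 ± 0.07, adjusted p = 0.018). SOX4, a factor of newly formed neurons, was at 1436 and 1382 CPM against 2466 and 2185 in the GATA3 class and 2766 and 2450.3 in the DLX class. It was lower than in both (log2 fold change -0.58 ± 0.07, edgeR adjusted p = 6.7e-07, and -0.72 ± 0.07, adjusted p = 2.3e-09). MAP2 and DPYSL3, genes of the neuronal cytoskeleton at 563 and 504 and 443 and 445 CPM, did not pass the test in any of the 3 comparisons. DCX, of migrating neurons, was lower than in the DLX class (log2 fold change -1.84 ± 0.34, edgeR adjusted p = 0.00023). So were CRMP1 (-1.61 ± 0.30, adjusted p = 0.00032) and INA (-0.95 ± 0.19, adjusted p = 0.00072), of growing axons, by the edgeR fit. The adhesion gene NCAM1 was higher than in the DLL3 class (log2 fold change 0.76 ± 0.18, edgeR adjusted p = 0.0099). Of the 10 young neuron genes tested, 2 were lower against the GATA3 class, 5 were lower against the DLX class and 2 were higher against the DLL3 class. Among the first, without embryo 1 the call of STMN2 (-0.33) was lost and without embryo 2 the call of STMN2 (-0.27) was lost. Among the second, without embryo 2 the calls of DCX (-1.43), CRMP1 (-1.26) and INA (-0.97) were lost. Among the third, without embryo 1 the calls of STMN2 (0.16) and NCAM1 (0.48) were lost and without embryo 2 the call of STMN2 (0.36) was lost, and STMN2 also fell short with the pair of embryonic globin cells left out (0.23).

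Of the genes of later neurons, CADPS and NEFM differed from several classes. CADPS was at 259 and 362 CPM, 667 and 755 in the GATA3 class, 78.0 and 93.5 in the DLX class and 72.2 and 94.6 in the DLL3 class. It was lower than in the GATA3 class (log2 fold change -1.04 ± 0.13, edgeR adjusted p = 1.7e-06). It was higher than in the DLX class (log2 fold change 2.03 ± 0.16, edgeR adjusted p = 8.3e-11) and the DLL3 class (1.83 ± 0.17, adjusted p = 9.8e-09), and these calls held without either embryo. NEFM was at 664 and 936 CPM, against 593 and 192 in the GATA3 class, 329.9 and 179.6 in the DLX class and 372 and 408 in the DLL3 class. Thus NEFM was higher than in the GATA3 class (log2 fold change 1.42 ± 0.26, edgeR adjusted p = 0.00055), the DLX class (1.95 ± 0.25, adjusted p = 9.2e-07) and the DLL3 class (0.99 ± 0.24, adjusted p = 0.015). The embryos of the GATA3 class were themselves far apart, and without embryo 2 the call of NEFM (0.29) was lost there. Compared with the DLL3 class, without embryo 2 the call of NEFM (0.78) was lost. GRIA2 and GABRA2, a glutamate and a GABA receptor subunit, were at 50.6 and 99.9 and 38.0 and 49.9 CPM and did not pass any of the tests. SCN2A, a sodium channel, had no UMI and was at least 3.02-fold lower than in the DLX class, taking the floor of 3 UMIs over the class. By DESeq2 neither SCN2A (adjusted p = 0.13) nor NEFM against the GATA3 and DLL3 classes (0.23 and 0.41) passed.

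Genes of regional identity differed most from those of the DLX class, where 8 of 15 tested were higher and 1 was lower (median log2 fold change 1.99, against -0.02 over all genes). Against the GATA3 class 0 of the 15 passed by edgeR, and DESeq2 gave an adjusted p for 1 of them, which did not pass. IRX1, IRX3, IRX5 and PAX3, or 4 of the 15, had an unadjusted p under 0.05 in edgeR, all toward lower levels in the GATA2-positive cells. OTX2, a homeobox factor of forebrain and midbrain, was detected in 48 cells at 164 and 183 CPM, 202 and 232 in the GATA3 class, 4.70 and 16.6 in the DLX class and 69.0 and 80.0 in the DLL3 class. OTX2 was higher than in the DLX class (log2 fold change 3.97 ± 0.31, edgeR adjusted p = 3.3e-11) and the DLL3 class (1.16 ± 0.24, adjusted p = 0.0029). The engrailed genes EN1 (3.65 ± 0.86, adjusted p = 0.0047) and EN2 (3.82 ± 0.46, adjusted p = 2.8e-07), of midbrain and anterior hindbrain, were also higher than in the DLX class. EN2 was at 50.6 and 74.9 CPM. The same held for the paired genes PAX3 (2.59 ± 0.48, adjusted p = 0.00028) and PAX7 (3.72 ± 0.76, adjusted p = 0.00088), of dorsal midbrain. IRX2 (4.05 ± 0.54, adjusted p = 1.9e-06), at 31.6 and 70.7 CPM, IRX3 (2.39 ± 0.49, adjusted p = 0.00088) and IRX5 (1.99 ± 0.46, adjusted p = 0.0036) completed the 8 genes, all by edgeR. MEIS2, at 56.9 and 54.1 CPM, did not differ in any comparison. IRX5 was lower than in the DLL3 class (log2 fold change -1.32 ± 0.33, edgeR adjusted p = 0.015). Among the calls against the DLX class, without embryo 2 the calls of EN1 (3.35), PAX7 (4.62), IRX3 (2.86) and IRX5 (0.67) were lost. For OTX2 and IRX5 against the DLL3 class, without embryo 1 the calls of OTX2 (1.09) and IRX5 (-1.02) were lost and without embryo 2 the calls of OTX2 (1.19) and IRX5 (-2.29) were lost.

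Of the TFAP2 family, TFAP2B was at 772 and 895 CPM, 733 and 1108 in the GATA3 class, 9.40 and 36.0 in the DLX class and 245 and 353 in the DLL3 class. Its level exceeded that of the DLX class (log2 fold change 5.19 ± 0.19, edgeR adjusted p = 2.4e-18) and the DLL3 class (1.41 ± 0.15, adjusted p = 9e-08). Both calls held without either embryo, but in the cells with 2 or more GATA2 UMIs the difference from the DLL3 class turned to -0.46. Its 337 UMIs came from 37 of the 114 cells, with a median of 7 UMIs in those that had any and none in the other 77. TFAP2A, at 44.3 and 25.0 CPM, was higher than in the DLX class (log2 fold change 4.65 ± 0.80, edgeR adjusted p = 0.0001). TFAP2D had 3 UMIs and was lower than in the DLL3 class (ratio of levels 7.20, 95% counting interval 2.40 to 35.5). Its call rested on both embryos, since without embryo 1 the call of TFAP2D (-2.41) was lost and without embryo 2 the call of TFAP2D (-7.97) was lost. TFAP2C was listed at 0.

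A further set of genes stood far above the DLX and DLL3 classes and did not pass the test against the GATA3 class. The genes THSD7A, IGSF21 and FOG2 were chosen after their values had been seen. THSD7A, which encodes a membrane protein with thrombospondin repeats, was detected in 100 of the 114 cells (87.7%). It was at 1999 and 1656 CPM, 2172 and 1935 in the GATA3 class, 316 and 287 in the DLX class and 361 and 354 in the DLL3 class. The difference was clear against the DLX class (log2 fold change 2.75 ± 0.09, edgeR adjusted p = 4.8e-19) and the DLL3 class (2.27 ± 0.09, adjusted p = 1.2e-16). A gene that the annotation names KLH35 was detected in 75 cells at 835 and 732 CPM, against 23.5 and 36.0 in the DLX class and 133 and 162 in the DLL3 class. Levels exceeded those of the DLX class (log2 fold change 4.79 ± 0.18, edgeR adjusted p = 2.4e-18) and the DLL3 class (2.31 ± 0.15, adjusted p = 6.2e-12). OAT, the name of an aminotransferase of ornithine that 5 summed gene models share, followed at 158 and 241 CPM (log2 fold change 4.43 ± 0.29, edgeR adjusted p = 1.4e-12 against the DLX class and 2.44 ± 0.25, adjusted p = 6.5e-08 against the DLL3 class). UNCX, at 94.9 and 99.9 CPM, was likewise higher than in the DLX class (log2 fold change 5.54 ± 0.48, edgeR adjusted p = 4.3e-10) and the DLL3 class (2.95 ± 0.39, adjusted p = 7.2e-06). So was the acid-sensing channel ASIC4, at 44.3 and 54.1 CPM (log2 fold change 4.75 ± 0.60, edgeR adjusted p = 7.5e-07, and 3.68 ± 0.59, adjusted p = 0.00013). The immunoglobulin gene IGSF21, at 278 and 329 CPM, followed (log2 fold change 3.79 ± 0.23, edgeR adjusted p = 2.4e-13, and 2.01 ± 0.20, adjusted p = 4.4e-08). FOG2, a name in use for ZFPM2, a zinc finger cofactor of GATA proteins, although the annotation does not pair the names, was at 56.9 and 87.4 CPM and 81.8 and 132 in the GATA3 class. It was higher than in the DLX class (log2 fold change 4.11 ± 0.43, edgeR adjusted p = 2.8e-08) and the DLL3 class (2.07 ± 0.37, adjusted p = 0.00061). None of THSD7A, KLH35, OAT, UNCX, ASIC4, IGSF21 and FOG2 passed the test against the GATA3 class (edgeR adjusted p from 0.48 for UNCX to 0.98 for OAT). For the comparison with the DLL3 class, without embryo 2 the calls of ASIC4 (3.13) and FOG2 (2.11) were lost.

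**Figure D4:**
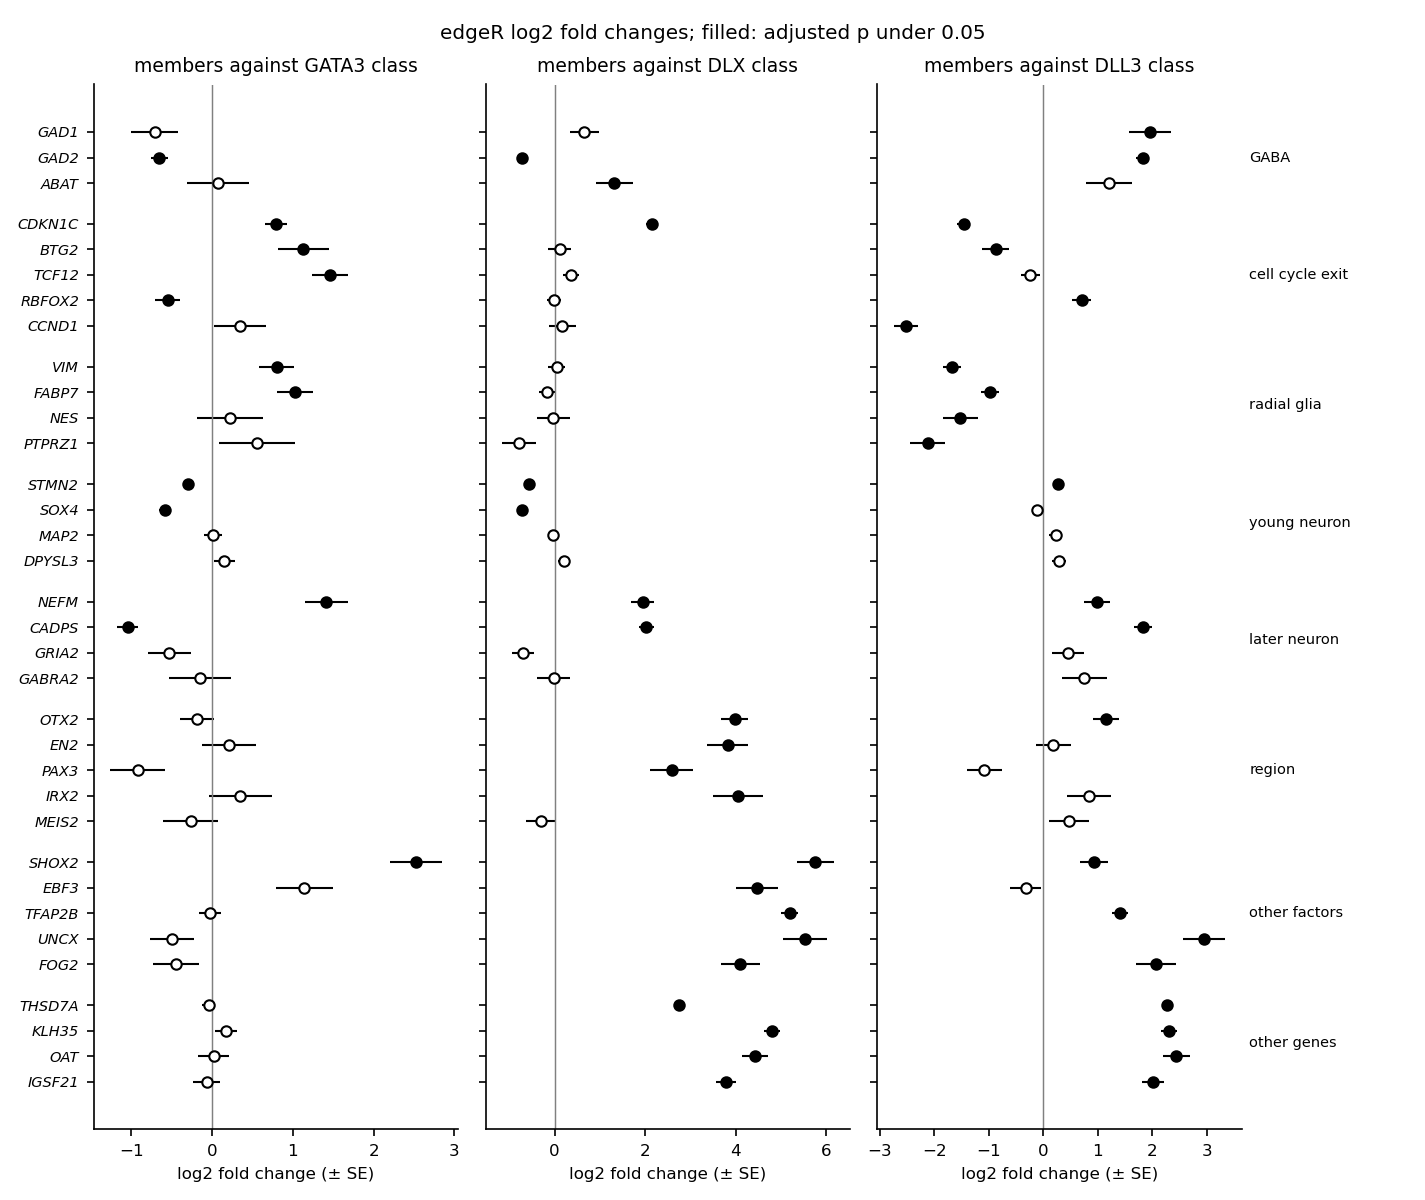
Log2 fold changes (with standard errors) of the GATA2-positive cells against the GATA3, DLX and DLL3 classes for 34 genes grouped by role, with filled points where the adjusted p was under 0.05 and a separate horizontal scale in each panel. CDKN1C, VIM and FABP7 lie right of 0 against the GATA3 class and left of 0 against the DLL3 class, GAD2 shows the reverse, and THSD7A, KLH35, OAT and IGSF21 lie near 0 against the GATA3 class alone.

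Of 8 genes of forebrain GABA neurons tested, 5 were lower than in the DLX class and none was higher (median log2 fold change -3.38, or -2.28 with undetected genes at their bound). ISL1, of striatal neurons, and LHX8, of the basal forebrain, had no UMI and were at least 5.07-fold and 4.68-fold lower, and NKX2-1 and SP9 had 1 UMI each. PAX6, VAX1, TMEFF2 and CSMD3, also without a UMI, were at least 3.79-fold, 3.58-fold, 3.66-fold and 2.73-fold lower. SST, the neuropeptide of a main interneuron class, had 1 UMI against 1377 in the DLX class, a ratio of levels of 176 (95% counting interval 31.5 to 6954). PENK, TAC1 and NTS had levels of 6.33 and 0, 6.33 and 0 and 0 and 4.16 CPM. FOXP1 was at 50.6 and 58.3 CPM and FOXP2 at 12.7 and 16.6 CPM. FOXP1 was higher than in the DLL3 class (log2 fold change 1.87 ± 0.43, edgeR adjusted p = 0.0081), where without embryo 1 the call of FOXP1 (1.81) was lost and without embryo 2 the call of FOXP1 (1.94) was lost. By DESeq2 1 of the 8 was lower, and ISL1, LHX8, NKX2-1 and SP9 did not pass (adjusted p = 0.064, 0.088, 0.46 and 0.47). VAX1, TMEFF2 and CSMD3 did not pass by DESeq2 either (adjusted p = 0.17, 0.11 and 0.2). For the genes lower than in the DLX class, without embryo 1 the calls of LHX8 (-7.39), VAX1 (-7.32), CSMD3 (-6.88), SCN2A (-7.10) and NKX2-1 (-2.43) were lost and without embryo 2 the calls of ISL1 (-7.07), LHX8 (-7.80), PAX6 (-7.12), TMEFF2 (-6.81), VAX1 (-6.92), CSMD3 (-6.63), SCN2A (-6.63), NKX2-1 (-7.55) and SP9 (-2.06) were lost. Here and elsewhere, a gene without a UMI in the GATA2-positive sums can only come out lower. Its fitted value is then no measure of size, and its direction carries no weight.

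Factors of glutamatergic neurons were a mixed group. EBF3, of midbrain glutamatergic neurons, was at 108 and 104 CPM, 61.3 and 47.9 in the GATA3 class, 6.58 and 4.38 in the DLX class and 100.4 and 141 in the DLL3 class. It was higher than in the DLX class (log2 fold change 4.47 ± 0.47, edgeR adjusted p = 1.9e-08) and did not pass against the GATA3 class (adjusted p = 0.079) or the DLL3 class (adjusted p = 0.68). TCF7L2, a Wnt effector of thalamic neurons, was at 405 and 83.2 CPM and higher than in the DLX class (log2 fold change 2.96 ± 0.39, edgeR adjusted p = 1.6e-06), but 80 of its 84 UMIs lay in 5 cells. SLC17A6, with 2 UMIs, was lower than in the DLL3 class (ratio of levels 6.78, counting interval 1.81 to 57.2). LHX9, a factor of glutamatergic neurons of midbrain and thalamus, had no UMI and was at least 3.63-fold lower than in the DLL3 class. Of 7 genes tested, SHOX2 alone was higher against the GATA3 class, and SHOX2, EBF3 and TCF7L2, or 3, were higher against the DLX class. SHOX2 was higher and SLC17A6 and LHX9 were lower against the DLL3 class. For the last pair, without embryo 1 the calls of SLC17A6 (-1.86) and LHX9 (-7.86) were lost and without embryo 2 the calls of SLC17A6 (-8.24) and LHX9 (-6.98) were lost.

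The genes with the greatest fold changes against the GATA3 class were few and mostly of low level. SHOX2 came second after SPARCL1, an extracellular matrix gene whose log2 fold change of 3.55 rested on 1 cell of embryo 1 that held 17 of its 18 UMIs. FBXW7, a ubiquitin ligase subunit that turns over cyclin E and Notch, was at 272 and 241 CPM against 69.0 and 104 (log2 fold change 1.60 ± 0.22, edgeR adjusted p = 5.4e-06). The membrane gene TMEM123 was at 177 and 154 CPM against 35.8 and 47.9 (log2 fold change 2.00 ± 0.28, edgeR adjusted p = 6.8e-06). These 2 calls held without either embryo. PROX1, a homeobox factor of differentiating neurons, was at 50.6 and 41.6 CPM against 12.8 and 12.3 (log2 fold change 1.98 ± 0.52, edgeR adjusted p = 0.027). TESC (2.05), FAM181B (1.98) and CLASRP (1.68) completed the 8 greatest increases on the log2 scale. On the lower side RAB3C, a small GTPase of synaptic vesicles, was at 25.3 and 49.9 CPM against 146 and 138 (log2 fold change -1.68 ± 0.32, edgeR adjusted p = 0.00081). RELN, the extracellular protein reelin, was at 38.0 and 74.9 CPM against 153 and 243 (log2 fold change -1.66 ± 0.28, edgeR adjusted p = 0.00017). The others were UB2E3 (-2.32), a name of the annotation, MTUS2 (-2.03), ARID5B (-1.95), the G protein regulator RGS4 (-1.76), PLCL1 (-1.59) and FAM13C (-1.47). UB2E3 had 3 UMIs in the GATA2-positive cells, a ratio of levels of 5.67 (1.84 to 28.3). LMO1 was also lower (log2 fold change -1.40 ± 0.38, edgeR adjusted p = 0.033), as it was against the DLL3 class (-1.32 ± 0.38, adjusted p = 0.041). Of these genes, without embryo 1 the calls of SPARCL1 (0.97), PROX1 (1.86), CLASRP (1.90), UB2E3 (-2.21), MTUS2 (-1.73), ARID5B (-2.03), RGS4 (-1.79) and LMO1 (-1.24) were lost and without embryo 2 the calls of TESC (0.83), FAM181B (0.55), PROX1 (2.10), CLASRP (1.20), UB2E3 (-2.63), MTUS2 (-2.55), ARID5B (-1.88), RGS4 (-1.68), RELN (-1.89), PLCL1 (-0.93), FAM13C (-0.85) and LMO1 (-2.02) were lost. For LMO1 against the DLL3 class, without embryo 1 the call of LMO1 (-1.06) was lost and without embryo 2 the call of LMO1 (-2.32) was lost.

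Against the DLL3 class the greatest increases, besides ASIC4, UNCX, OAT and KLH35, were those of 4 genes. TBCEL, a tubulin cofactor gene, was at 25.3 and 20.8 CPM against 1.57 and 0.769 (log2 fold change 4.19 ± 1.07, edgeR adjusted p = 0.019). The calcium channel subunit CACNA2D3 was at 69.6 and 16.6 CPM against 4.71 and 5.38 (log2 fold change 2.74 ± 0.64, edgeR adjusted p = 0.0095). ARNT (2.58 ± 0.73, adjusted p = 0.04), a dimer partner of hypoxia and dioxin factors, and the tubulin kinase gene TTBK2 (2.45 ± 0.69, adjusted p = 0.037) followed. The greatest decreases were those of genes nearly absent from the cells. GNG8, a G protein subunit, and the protease gene MASP1 had no UMI and were at least 5.21-fold and 3.29-fold lower. CACNA2D1 (ratio of levels 18.3, 3.20 to 731), ISLR2 (13.6, 2.35 to 544) and the genes that the annotation names PACA (13.4, 2.32 to 536) and MOT1 (10.5, 1.80 to 422) had 1 UMI each, with 95% counting intervals. APOE, a lipid carrier gene, was at 6.33 and 4.16 CPM against 14.1 and 98.4 (ratio 14.1, 3.82 to 117), but a UMI was found in 1.75% of the GATA2-positive cells and 1.96% of the DLL3 class, where 10 cells held all 137 UMIs. With the highest doublet scores left out APOE was not among the genes tested. The 76 GNG8 UMIs of the DLL3 class lay in 13 of its 511 cells. Here without embryo 1 the calls of TBCEL (4.43), CACNA2D3 (1.50), ARNT (2.67), MASP1 (-7.55), ISLR2 (-3.11), PACA (-3.37) and MOT1 (-2.71) were lost and without embryo 2 the calls of TBCEL (3.83), ARNT (2.33), TTBK2 (0.36), GNG8 (-7.48), MASP1 (-7.30), CACNA2D1 (-7.91), ISLR2 (-7.78), APOE (-1.20), PACA (-6.85) and MOT1 (-7.48) were lost.

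Among genes of axon guidance, EPHA4, the name of an ephrin receptor, was shared by 23 gene models on many chromosomes. Their sum, which cannot be read as the level of 1 receptor gene, was at 1980.0 and 986 CPM. Embryo 1 was above embryo 2 in the GATA3 class (1638 and 873 CPM) and the DLX class (1528 and 929 CPM) too. This EPHA4 sum was slightly higher than in the GATA3 class (log2 fold change 0.36 ± 0.08, edgeR adjusted p = 0.0052) and the DLX class (0.39 ± 0.08, adjusted p = 0.00062). ROBO2, a Slit receptor, was lower than in the GATA3 class (log2 fold change -1.01 ± 0.23, edgeR adjusted p = 0.0076). UNC5C, a netrin receptor, was at 38.0 and 58.3 CPM and higher than in the DLX class (log2 fold change 2.49 ± 0.44, edgeR adjusted p = 0.00015) and the DLL3 class (1.60 ± 0.43, adjusted p = 0.027). EPHA5 (log2 fold change -2.75 ± 0.41, edgeR adjusted p = 1.2e-05) and EFNB2 (-2.45 ± 0.50, adjusted p = 0.00081), an ephrin receptor and a ligand, were lower than in the DLX class, and NRP1 was at 12.7 and 33.3 CPM. Of 9 genes tested, 1 was higher and 1 lower against the GATA3 class, 2 were higher and 2 lower against the DLX class, and 1 was higher against the DLL3 class. For the pair that differed from the GATA3 class, without embryo 1 the call of EPHA4 (0.29) was lost and without embryo 2 the calls of EPHA4 (0.40) and ROBO2 (-0.80) were lost. For the 4 that differed from the DLX class, without embryo 1 the call of EPHA4 (0.21) was lost and without embryo 2 the calls of UNC5C (2.29) and EFNB2 (-1.75) were lost. For UNC5C against the DLL3 class, without embryo 1 the call of UNC5C (1.67) was lost and without embryo 2 the call of UNC5C (1.36) was lost.

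Within the GATA2-positive cells, the 17 with a GATA3 UMI were set beside the 97 without one. GATA3 was among the genes that chose the cells, and those without it had entered through LHX1, LHX5 or ST18. The split is thus not independent of the choice, and its values are a description from which nothing is read. The sums were small, 26917 and 28564 UMIs against 131163 and 211726, and the median log2 fold change over all genes was -0.29. An edgeR adjusted p under 0.05 was given to 6 of 4533 genes (0.132%), 2 higher (0.0441%) and 4 lower (0.0882%) in the cells with GATA3. KIZ, a centrosome gene, was at 149 and 455 CPM with GATA3 and at 38.1 and 47.2 CPM without it, from 4 and 13 UMIs against 5 and 10. TCF7L2 had 46 UMIs in embryo 1 and none in embryo 2 with GATA3. HBE1 and HBG1 had 878 and 666 UMIs without GATA3 in embryo 1, mostly in the pair of embryonic globin cells, and neither passed without that pair. HSP90AA1, a chaperone gene, was at 6093 and 6932 CPM with GATA3 and 7906 and 8114 CPM without it. The ribosomal protein gene RPL36AL was at 706 and 630.2 CPM against 1273 and 930.5 CPM, and did not pass without the pair of cells either. Of the 4 lower genes 0 passed by DESeq2, and 0 by edgeR with the highest doublet scores left out. Without the block 0 genes passed by edgeR, with 423 at an unadjusted p under 0.05, and 1 gene passed by DESeq2. The names KIZ, HSP90AA1 and RPL36AL were given here after their values were seen.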

How the data were processed

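Per the labels, whole embryonic brains were dissociated with papain and loaded on 10x 3′ version 3 chips, and the submitters' processing notes name fastp, Cell Ranger 3.1.0 and Seurat 3. The deposited matrices hold UMI counts per gene model and barcode that the authors made by mapping to the TS_2.0 tree shrew assembly, and all 18926 barcodes were kept as deposited. Models of one name were summed, which joined 23 models for EPHA4, 5 for OAT, 3 for MAP2 and 2 each for STMN2 and FABP7. A level under such a name need not be that of 1 gene. Total counts were 41868023 and 38077767 UMIs in embryos 1 and 2. Counts of each class were summed per embryo, which gives 1 sum per class and embryo. As the same animal supplies every class, embryo was a block by design, and 2 embryos are the only replicates. Classes were chosen by single genes and not by clusters, and the 20 genes that defined them were left out of the tests. One fit over 5 classes (edgeR 4.0.16, R 4.3.3, filterByExpr, TMM, quasi-likelihood) gave log2 fold changes and Benjamini-Hochberg adjusted p over all genes tested. DESeq2 1.42.0 was an alternative. On simulated data with 200 genes changed 4-fold the fit recovered 93, 98 and 96% of them against the GATA3, DLX and DLL3 classes (4821, 4827 and 4801 genes). Of the calls, 4.62, 5.31 and 7.25% were false. The simulated coefficient of biological variation was 0.15, against 0.0532 fitted to the data, and the classes were otherwise alike. Changed genes were drawn only from the better detected ones, so the rates do not cover smaller changes or genes of few UMIs.

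Scrublet at its own threshold marked 1 barcode in each library and so did not work. Doublets were kept, and an alternative left out the highest scores at 0.8% per 1000 barcodes. The cells and gene lists were chosen with earlier results of these data known. Named genes are those of the selection, of the partner and GABA lists and of the cell type markers, the 4 most abundant of each other list, and for each comparison the 8 greatest increases and 8 greatest decreases with adjusted p under 0.05, one direction in both embryos and a mean of at least 20 CPM in the higher class. CCND1, CRMP1, INA, NCAM1, EN1, PAX3, PAX7, IRX1, IRX3, IRX5, EPHA5, EFNB2, NKX2-1, HBE1, HBG1, THSD7A, IGSF21, FOG2, KIZ, HSP90AA1 and RPL36AL fall outside this rule and were named after their values were seen. Other alternatives were RLE scaling, no gene filter, no block, other gene and GATA2 minimums, and leaving out 1 embryo. Clopper-Pearson and Poisson intervals are at 95% and the floor is 3 UMIs. Of the lists, 46 names, among them SOX2, TAL2, TUBB3 and GAP43, matched no name in the annotation and have no value here under those names. Some further genes of the lists are not reported here.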

Additional observations from a re-analysis of the deposited data

How the results depend on the processing

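With 114 cells and 2 embryos, low genes rest on few UMIs, and single-embryo fits have few degrees of freedom. Without the embryo block, counts of changed genes fell from 170, 428 and 202 against the GATA3, DLX and DLL3 classes to 36, 284 and 88, and from 6 to 0 for the cells with GATA3 against those without. With 1 embryo left out they ranged from 63 to 115, 190 to 328, 62 to 77 and 5 to 58, and the cells from 43 to 71. DESeq2 gave 256, 93 and 1 for the DLX, DLL3 and GATA3-positive comparisons. No gene filter gave 28 for the last and turned the splits against the GATA3, DLX and DLL3 classes from 120 higher and 50 lower, 251 and 177, and 75 and 127 to 88 and 77, 203 and 248, and 56 and 221. For the cells with GATA3, leaving out the highest Scrublet scores gave 2, and leaving out the embryonic globin cells, an alternative chosen after seeing the data, gave 3. Asking for 2 GATA2 UMIs left 14 cells and 83, 155 and 93 genes, split 26 and 57, 66 and 89, and 5 and 88. It moved the median log2 fold change over all genes to -0.38, -0.38 and -0.39. Of 119 named fold changes it turned the sign of 12, namely SPARCL1 (-4.53) and CDKN1C (-0.026) against the GATA3 class, ASIC4 (-3.47), TFAP2A (-2.94), GAD1 (-1.92), EN1 (-3.28), PAX7 (-3.59) and IRX3 (-5.38) against the DLX class, and ASIC4 (-4.54), GAD1 (-0.62), RBFOX2 (-0.24) and TFAP2B (-0.46) against the DLL3 class. CDKN1C and RBFOX2 stayed above that median. In the cells with GATA3, TCF7L2 and HBG1 ranged from -9.13 to 3.17 and from -14.90 to 2.50 without 1 embryo, and HBE1 and HBG1 stood at 0.043 and -0.18 without the embryonic globin cells, where BTG2 against the GATA3 class (1.09) and RPL36AL (-0.87) also fell short. The cause was not tested. Thinning to 1500 UMIs lowered the mean share of cells with GATA2 from 4.10 to 1.28% by GATA3 and from 4.82 to 2.04% by DLL3. RLE scaling kept 125 of 127 named calls or non-calls, not counting ST18 (also chosen after seeing the data) 118, and no block 85, and none of these 3 reversed a direction. DESeq2 kept 63 of the 83 for which it gave an adjusted p, and the minimum of 1000 genes per cell kept 102 of 120.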

Other observations

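The 35 GATA2-positive cells with none of LHX1, LHX5, GATA3 and ST18 (15 in embryo 1 and 20 in embryo 2), set beside the 114 cells after their values had been seen and without a test, were of like depth, at medians of 3507 and 2974 UMIs. Their CDKN1C level was 2549 and 4407 CPM, above the 709 and 1190.2 CPM of the 114 cells in either embryo, and CCND1 was at 474 and 390 CPM. GAD2, at 217 and 374 CPM, and STMN2, at 1838 and 1366 CPM, were below the levels of the 114 cells. GAD1 or GAD2 was detected in 16 of the 35 cells (45.7%), and SHOX2 in 1. THSD7A was found in 6 of 15 and 8 of 20 of them, and KLH35 in 4 and 5. DLL3 had a UMI in 3 and 7 cells. The 9 GATA2-positive cells with at least 2 cycle genes had THSD7A in 8 of 9 cells, at 1379 and 1732 CPM, and GAD2 at 388 and 606 CPM. Counts of this size carry wide counting errors, with exact 95% Poisson intervals of 108 to 389 and 237 to 561 CPM for GAD2 in the 35 cells.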
